A study of Homo sapiens with 2 samples.

Results

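Long intergenic non-coding RNAs were measured in K562 cells exposed to 1 µM cabozantinib (XL184) over 48 h and in control cells given the vehicle DMSO for the same time. K562 is an established human erythroleukemia line that carries the BCR-ABL1 fusion, and cabozantinib inhibits MET, VEGF receptors, AXL and other kinases. Both cultures were asynchronous and grown in serum-containing medium, and with 1 library in each group the differences carry no replicate check. The genes were selected on their name and their counts: they are those whose deposited symbol is LINC followed by digits and that had at least 20 counts summed over the 2 libraries. Of 224 such symbols, 108 passed this sum and 116 did not, among 25702 genes in the count files, 13391 of which had at least 20 counts. The summed counts chose the genes, so being measurable here is a description and not a finding.

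LINC symbols are given to long non-coding RNA genes that lie between protein-coding genes and have no better name. Such RNAs are transcribed by RNA polymerase II and usually spliced, and many are retained in the nucleus, scarce, and restricted to few cell types. A few are known to act on a neighbouring gene or in the cytoplasm, some proved to encode small proteins, and most have no known role. Of the 108 genes, the RefSeq gene table lists 107 as lncRNA and 1, LINC00634, as protein-coding under the name SMIM45. There 14 of the 108 carry a newer name, 7 of them as the divergent transcript of a protein-coding gene.

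With cabozantinib, many more LINC genes were lower than higher. A gene was called when it differed by at least 2-fold, after scaling, and the exact 95% interval of the ratio of its 2 counts left out no change. By this rule 23 of the 108 LINC genes were lower (21.3%) and 3 were higher (2.78%). Over all genes with at least 20 counts, 6.17% were lower and 2.92% higher by the same rule. The other 82 LINC genes were not called. At 1.5-fold 36 were lower (33.3%, beside 12.3% of all genes) and 6 were higher (5.56%, beside 8.01%). The median log2 ratio, cabozantinib over DMSO, was -0.27 over the LINC genes and 0.00 over all genes, and 76 of the 108 had a ratio below 0. The intervals cover counting error only, and these shares were not tested against each other.

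**Figure D1:**
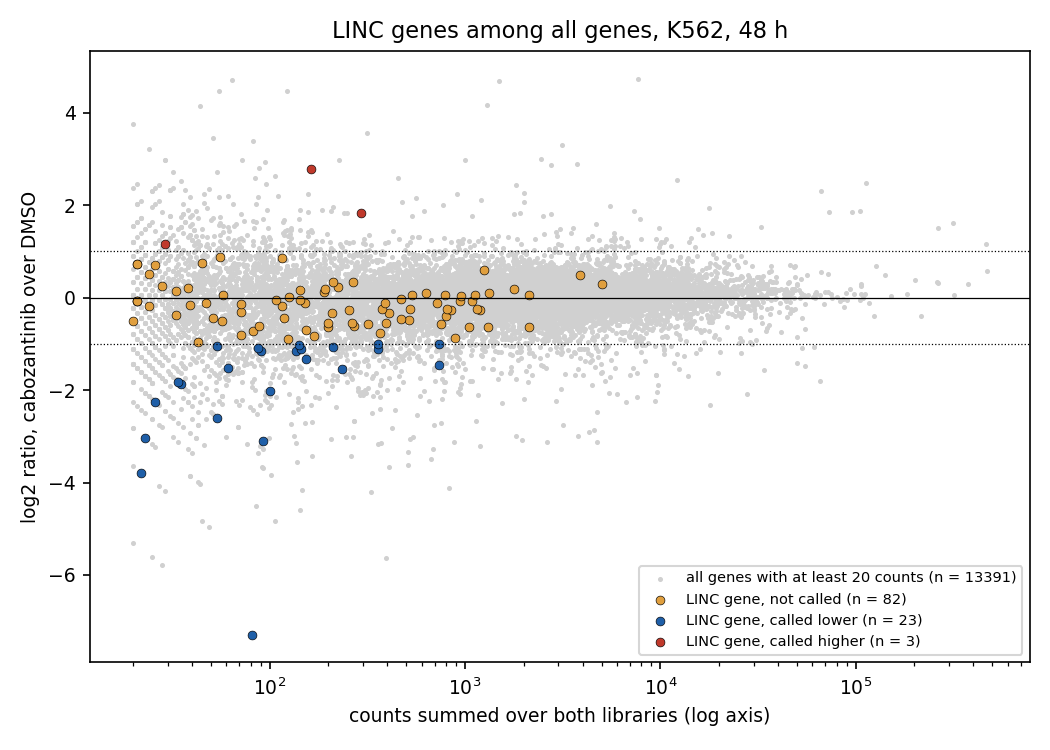
Each point is a gene, with the counts summed over both libraries on a log axis and the log2 ratio of cabozantinib over DMSO (pseudocount 0.5), and dotted lines mark 2-fold. Of the LINC genes, 23 lie below as called lower and 3 above as called higher, among 13391 genes in grey. LINC01132, with 0 counts in cabozantinib, sits lowest at a log2 ratio of -7.29 that depends on the pseudocount.

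Fewer counts make large ratios more common, so the shares were also taken at higher counts. These thresholds do not equalise the counts: the median summed count was 366 for the LINC genes and 1917 for all genes at 100 counts or more, and 793 and 2362 at 300 or more. The part of this gap in the shares was not tested. Of 69 LINC genes with at least 100 counts, 11 were lower (15.9%) and 2 higher (2.90%), where all genes at that level gave 4.37% and 1.83%. Of 38 with at least 300 counts, 4 were lower (10.5%) and 0 higher, where all genes gave 3.11% and 1.42%. The 4 were LINC00662, LINC01011, LINC02610 and LINC00346. The median log2 ratio stayed between -0.27 and -0.24 at these 3 levels. By the share called lower and by the median, other genes typed as lncRNA lay between LINC and protein-coding genes at each level. Their share called higher was above both only with at least 20 counts. With at least 100 counts it was 1.74%, beside 2.90% of LINC and 1.74% of protein-coding genes. With at least 300 counts it was 1.17%, beside 0 and 1.45%. With at least 20 counts, 11.9% of 463 such genes were called lower and 3.89% higher, and their log2 ratios centred on a median of -0.19. Of 11764 protein-coding genes at that same level 5.75% were called lower and 2.32% higher, and their median was 0.01.

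**Figure D2:**
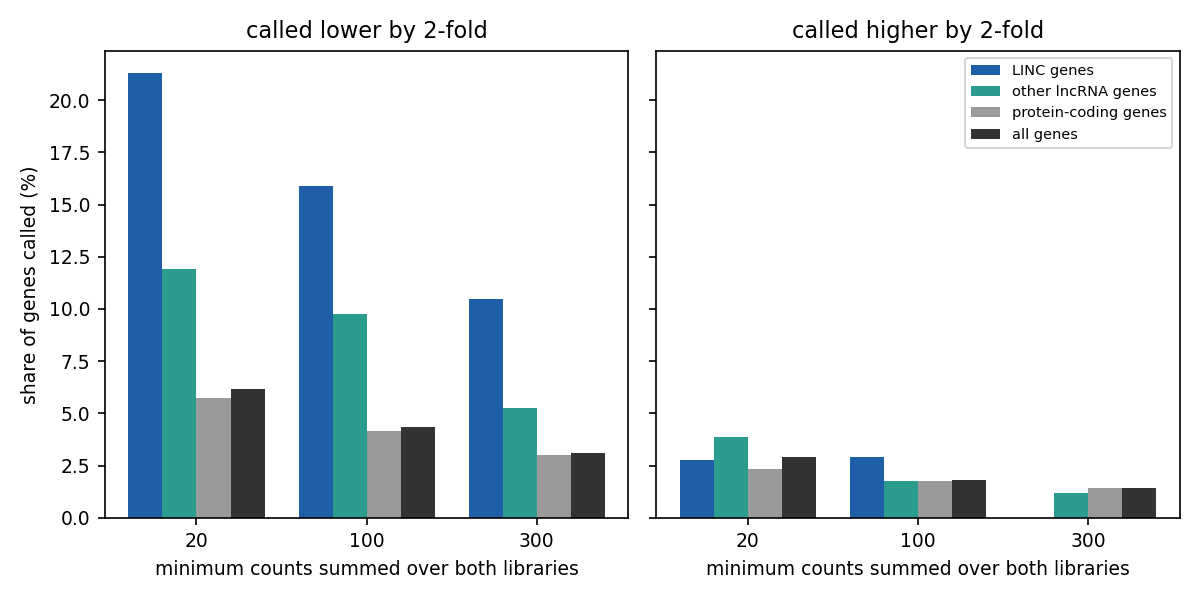
Bars give the percentage of genes called lower (left) or higher (right) by 2-fold among genes with at least 20, 100 or 300 counts, from 1 library per group. The LINC genes have the highest share called lower at each level, from 21.3% to 10.5%, and their share called higher is between 0 and 2.90%.

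**Figure D3:**
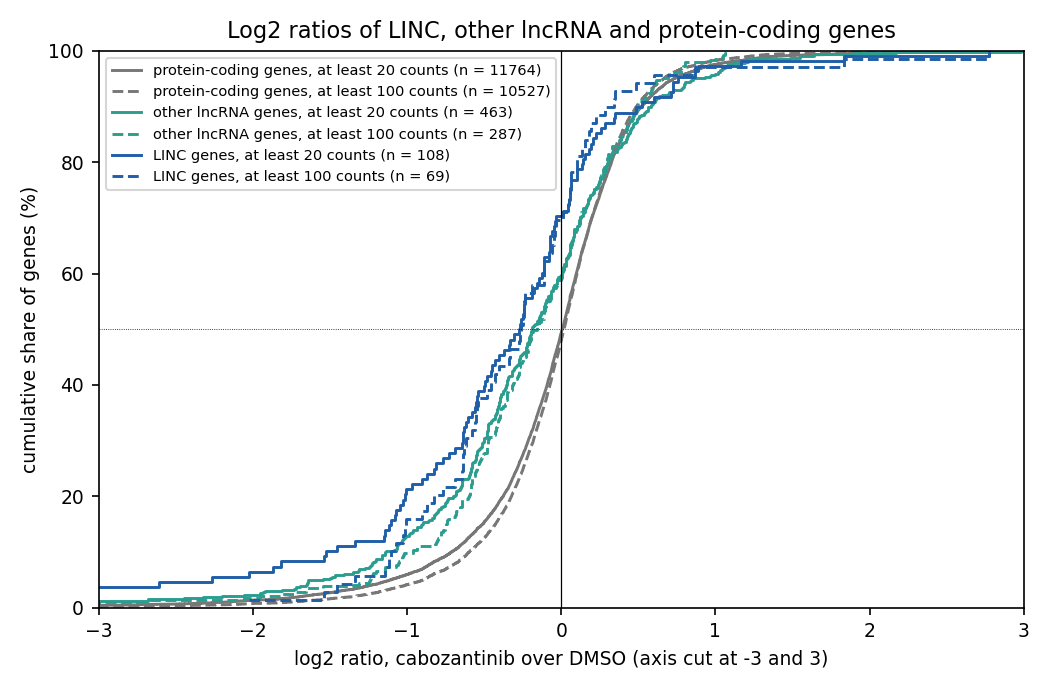
Curves give the cumulative percentage of genes against the log2 ratio of cabozantinib over DMSO for LINC, other lncRNA and protein-coding genes, with at least 20 counts (solid) or 100 counts (dashed). The LINC curve crosses 50% at -0.27, the other lncRNA curve at -0.19 and the protein-coding curve at 0.01.

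The LINC genes took a small part of each library. They held 25143 of 25025243 counts in DMSO, or 0.1005% (exact 95% binomial interval 0.0992% to 0.102%), and 21751 of 25505289 with cabozantinib, or 0.0853% (0.0842% to 0.0864%). Levels are given in CPM, counts for each 1e6 counts after scaling, and between genes only as CPM for each kilobase of exon. The median level was 1.51 CPM per kb for the LINC genes, 1.89 for the other lncRNA genes and 11.0 for protein-coding genes. The LINC genes had a median of 3 exons, and 16 had a single exon. The 8 genes with the most counts held 40.3% of all counts in the group, and the ratio of summed CPM, -0.15 on the log2 scale, was smaller in size than the median of the genes' own ratios.

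LINC01132 (Entrez 100506810; hg19 chromosome 1, 234859789 to 234867390, plus strand, 3 exons) had 81 counts in DMSO, or 3.14 CPM, and 0 with cabozantinib. The exact interval puts the gene at least 20.6-fold lower. A count of 0 allows up to 3 counts, or 0.121 CPM, and the DMSO level was 26.0 times that limit, with the error of the 81 counts left out. It was the only LINC gene of the 108 with 0 counts in a library. LINC01512 (Entrez 100132354; chromosome 6, 43858765 to 43905944, plus strand, 2 exons) had 84 and 9 counts, 3.26 and 0.363 CPM, and was 8.97-fold lower (4.51 to 20.3). LINC00239 (chromosome 14, 102196774 to 102198862) had 47 and 7 counts and was 6.45-fold lower (2.90 to 16.9). LINC01097 (chromosome 4, 13527943 to 13533041) had 82 and 19 counts and was 4.15-fold lower (2.50 to 7.24). Each of these 4 genes was above 1.5 CPM in DMSO and below 1 CPM with cabozantinib. The sequence of LINC01512 was not compared with that of other genes, because it had no matched transcript.

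The promoters of 4 of the lower genes are shown as examples, which do not stand for the other lower genes. All are RefSeq promoter windows of GRCh38.p14, 250 bases before to 50 after the annotated start. Which start K562 cells use was not analysed here. Capitals mark matches to 3 of the motifs searched, each on both strands. The GATA motif was AGATAA in one form and, in its other form, TGATAA. The letters searched for the AP-1 family were TGANTCA. Those searched for the STAT family were TTCNNNGAA. The LINC01132 window is chr1:234723792-234724091 (plus strand), that of LINC01512 chr6:43890778-43891077 (plus strand), that of LINC00324 chr17:8223994-8224293 (minus strand) and that of LINC00346 chr13:110870259-110870558 (minus strand).
LINC01132: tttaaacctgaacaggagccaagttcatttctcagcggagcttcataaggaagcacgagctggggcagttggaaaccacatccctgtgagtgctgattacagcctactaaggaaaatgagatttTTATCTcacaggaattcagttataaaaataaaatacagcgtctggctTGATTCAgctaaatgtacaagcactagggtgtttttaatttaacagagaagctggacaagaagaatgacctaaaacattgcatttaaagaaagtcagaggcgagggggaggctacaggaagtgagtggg
LINC01512: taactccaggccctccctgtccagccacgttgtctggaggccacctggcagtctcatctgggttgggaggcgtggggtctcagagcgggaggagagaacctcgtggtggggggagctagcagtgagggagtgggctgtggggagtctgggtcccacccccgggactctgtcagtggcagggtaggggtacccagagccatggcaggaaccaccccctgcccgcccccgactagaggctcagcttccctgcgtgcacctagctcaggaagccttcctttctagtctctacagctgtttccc
LINC00324: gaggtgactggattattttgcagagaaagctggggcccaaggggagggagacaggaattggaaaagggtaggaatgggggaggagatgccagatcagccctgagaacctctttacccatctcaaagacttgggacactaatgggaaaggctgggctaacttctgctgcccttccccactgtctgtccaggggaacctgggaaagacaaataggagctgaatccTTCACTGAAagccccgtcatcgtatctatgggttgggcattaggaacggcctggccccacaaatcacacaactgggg
LINC00346: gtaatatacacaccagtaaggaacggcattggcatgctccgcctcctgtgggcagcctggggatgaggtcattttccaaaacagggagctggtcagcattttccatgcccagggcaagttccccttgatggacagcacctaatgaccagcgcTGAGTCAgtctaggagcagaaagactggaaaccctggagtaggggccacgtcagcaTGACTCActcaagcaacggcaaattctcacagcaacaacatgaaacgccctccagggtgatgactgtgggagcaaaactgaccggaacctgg

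The LINC01132 window held 1 GATA and 1 AP-1 match, 126 and 79 bases before the start, and 42.0% of its bases were G or C. The LINC00346 window held 2 AP-1 matches, 98 and 42 bases before the start, and the LINC00324 window 1 STAT match. Among the 17 lower LINC genes with a promoter window, no other held the GATA, AP-1 or STAT letters. The LINC01512 window, 64.3% G or C, held none of these letters and none of 2 other motifs searched, KLF (CCACACCC or CCCCACCC) and CREB (TGACGTCA). Among all 27305 RefSeq promoters of this length, 16.6% hold the GATA letters, 7.76% those of AP-1, 7.88% those of STAT, 13.2% those of KLF and 1.98% those of CREB. Among genes with at least 20 counts, the shares were 8.25% for GATA, 4.27% for AP-1, 6.21% for STAT, 14.5% for KLF and 3.37% for CREB. Those shares rest on the 10175 of 13391 genes with a promoter in the table, under 80% of them, and are void as a comparison. A match is a description of the letters and not a bound site. Only 75 of the 108 LINC genes had a promoter in the table, so a count of motifs over the group is void.

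Other lower genes rested on few counts in cabozantinib. LINC00261 (Entrez 140828; chromosome 20, 22541191 to 22559280), an RNA of definitive endoderm encoded beside FOXA2, had 21 and 1 counts, DMSO first, and was 20.2-fold lower (3.25 to 835). LINC00261 may be uncertain, since 97.3% of its 31-base words also occur in AL121722.1, the highest share among the 100 LINC genes matched. Whether AL121722.1 is a copy elsewhere or lies at the same place was not determined. LINC00324 (chromosome 17, 8123948 to 8127361) had 21 and 2 counts, 10.1-fold lower (2.47 to 88.8). LINC00884 (chromosome 3, 194207869 to 194209274), now named ATP13A3-DT, had 22 and 4 counts, 5.29-fold lower (1.80 to 21.1). These genes were under 1 CPM in both libraries. Their intervals leave out no change but leave the size of the difference wide.

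Of the 11 lower genes with at least 100 counts, LINC01097 above had the widest difference, and LINC00662, LINC01366 and LINC00623 followed. LINC00662 (Entrez 148189; chromosome 19, 28281401 to 28284848, minus strand, 3 exons), an RNA studied in several tumours, had 543 and 190 counts, 21.1 CPM in DMSO and 7.67 with cabozantinib, and was 2.75-fold lower (2.32 to 3.26). LINC01366 (chromosome 5, 169758435 to 169762104) had 176 and 58 counts, 6.83 and 2.34 CPM, and was 2.92-fold lower, at least 2.16-fold by its interval. LINC00623 (chromosome 1, 144300512 to 144340773) had 111 and 42 counts, 4.31 and 1.70 CPM, and was 2.54-fold lower (1.77 to 3.72). LINC00623 may be uncertain, since 81.3% of the 31-base words of its longest GENCODE transcript also occur in other genes, most of them in LINC01145.

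The remaining 13 lower genes were between 2.01-fold and 3.85-fold lower. LINC00173, an RNA described in granulocytes, was among them, with 100 and 44 counts, 3.88 and 1.78 CPM (2.18-fold lower, 1.52 to 3.19). LINC00346, now named PRECSIT after its ties to p53 and STAT3 in carcinoma, had 244 and 116 counts, 9.47 and 4.68 CPM (2.02-fold lower, 1.61 to 2.54). These 2 were chosen as examples after their values were seen. LINC00957, at 28 and 7 counts, and LINC01011, at 496 and 237, marked the ends of the range.

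**Figure D4:**
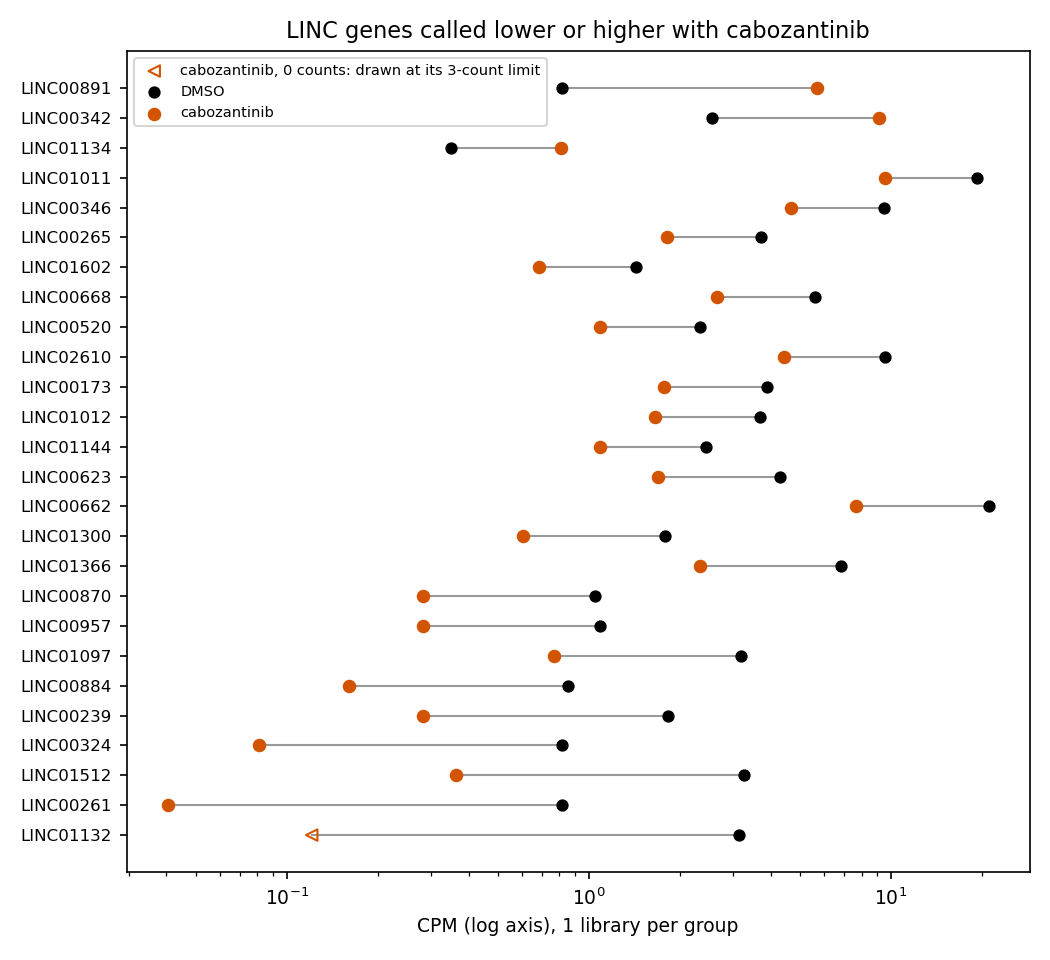
Black points give CPM in DMSO and orange points CPM with cabozantinib, on a log axis, for the 26 LINC genes called, 1 library per group. The open triangle marks LINC01132, drawn at 0.121 CPM, the limit of 3 counts, because it had 0 counts. The 3 genes at the top were higher and the 23 below were lower with cabozantinib.

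The higher genes were LINC00891, LINC00342 and LINC01134. LINC00891 (Entrez 441501; chromosome X, 70917046 to 70923256, plus strand, 3 exons) had 21 counts in DMSO and 141 with cabozantinib, 0.815 and 5.69 CPM, and was 6.98-fold higher (4.40 to 11.6). LINC00342 (Entrez 150759; chromosome 2, 96472800 to 96482510, minus strand, 2 exons) had 66 and 227 counts, 2.56 and 9.16 CPM, and was 3.58-fold higher (2.71 to 4.78). LINC00342 shares 45.8% of its 31-base words with other genes, so its counts may hold reads of a copy. LINC01134 (chromosome 1, 3816968 to 3832011) had 9 and 20 counts and was 2.31-fold higher (1.01 to 5.77). Its interval barely left out no change, and it was no longer called under scaling by total counts or by the upper quartile.

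Of the 8 LINC genes with the highest CPM none was called at 2-fold. LINC00958, an RNA studied in bladder cancer (Entrez 100506305; chromosome 11, 13001081 to 13011095), had the highest level for its length, 35.9 CPM per kb in DMSO and 50.3 with cabozantinib. Its log2 ratio was 0.49 (0.39 to 0.58). LINC01000 (chromosome 7, 128281295 to 128301052) had the most counts, 2322 and 2724, with a log2 ratio of 0.29 (0.21 to 0.37). LINC00200 (chromosome 10, 1205708 to 1210612) stood at 17.0 and 17.6 CPM per kb, a log2 ratio of 0.05 (-0.07 to 0.17). LINC00667 had 856 and 934 counts (log2 ratio 0.18, 0.05 to 0.32), and LINC01001 651 and 673 (0.10, -0.05 to 0.26). Among these LINC01001 may be uncertain, with 88.9% of its 31-base words shared with other genes. LINC01000 had no matched transcript, so its shared sequence was not measured.

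Some abundant genes were past 1.5-fold but short of 2-fold. LINC00963, an RNA studied in prostate cancer (chromosome 9, 132245730 to 132267406), stood at 17.5 and 11.3 CPM per kb, DMSO first, on 1318 and 817 counts, a log2 ratio of -0.63 (-0.76 to -0.51). LINC00888 (chromosome 3, 183165396 to 183173801), which RefSeq now names SNHG33 as a host of small nucleolar RNAs, had 808 and 497 counts and a log2 ratio of -0.64 (-0.81 to -0.48). LINC01128 (chromosome 1, 763064 to 789740) stood at 12.8 and 19.4 CPM per kb, a log2 ratio of 0.60 (0.44 to 0.77).

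Of 28 LINC symbols listed as studied in the field, 13 were in the annotation under that symbol and 6 of these had at least 20 counts. LINC00261 and LINC00662 were the 2 called, both lower, where 21.3% of the 108 LINC genes and 6.17% of all genes were lower. LINC00261 rests on 21 and 1 counts. LINC00467, an RNA tied to MYCN in neuroblastoma, had 459 and 299 counts and a log2 ratio of -0.56 (-0.78 to -0.35). LINC01089, also called LIMT, had 637 and 518 counts (-0.24, -0.41 to -0.07), and 56.5% of its 31-base words occur in RHOF. LINC00839 had 80 and 71 counts (-0.11, -0.60 to 0.36), and LINC00667 is given above. LINC00473, LINC00511, LINC00673, LINC01139 and LINC00460 had no count in either library, and a count of 0 leaves room for 3.

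A hand-picked list held 32 RNAs with names of their own, of which 24 had at least 20 counts. RefSeq types most of them as lncRNA, but TUG1 as protein-coding and RMRP, RPPH1 and TERC as other RNA types. Of the 24, 2 were higher and 3 lower, beside 2.92% and 6.17% of all genes and 3.89% and 11.9% of the 463 other lncRNA genes. The lower RPPH1 and RMRP are not typed as lncRNA, unlike those 463. The median log2 ratio of the list was 0.09, above the -0.19 of those 463 genes, so the list does not stand for them. NORAD, the cytoplasmic decoy of PUMILIO proteins once called LINC00657, had a log2 ratio of 0.10, and the nuclear RNAs MALAT1 and NEAT1 had 0.07 and -0.13. MIR17HG, host of a MYC-driven microRNA cluster, was higher at 1.04 (0.96 to 1.13), as was UCA1 at 1.08. LINC-PINT, whose symbol the rule does not take, was lower at -1.07, and the RNA components of RNase P and RNase MRP, RPPH1 and RMRP, were lower at -2.52 and -1.77.

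In the deposited annotation, 93 of the LINC genes overlapped no protein-coding gene and did not lie head to head with one. All 23 lower genes were among these 93 (24.7%), along with 2 of the higher genes. The 93 are most of the 108 LINC genes, of which 21.3% were lower, beside 6.17% of all genes. Of 13 LINC genes that start head to head with a protein-coding gene, within 5 kb on the opposite strand, 0 were lower by 2-fold and 1, LINC01134, was higher. At 1.5-fold 2 of the 13, LINC01137 and LINC00528, were lower, as were 33 of the 93 and 12.3% of all genes. Their median log2 ratio was -0.24, beside -0.33 for the 93, and their median summed count was 71, beside 199. LINC01560 and LINC00476 overlapped a protein-coding gene on the opposite strand, and neither was called at 2-fold. The classes rest on the starts in the deposited annotation. LINC00884, a lower gene now named ATP13A3-DT as a divergent transcript, counts among the 93. Its start in that annotation lies 18.9 kb from that of ATP13A3. Whether these classes differ was not tested.

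By exon number, 19 of 65 LINC genes with 2 to 4 exons were lower (29.2%). With a single exon 2 of 16 were lower (12.5%), and with 5 or more 2 of 27 (7.41%). The median log2 ratios were -0.50, -0.42 and -0.07, and the median summed counts 143, 308 and 225. By chromosome, 3 of 14 LINC genes on chromosome 1 were lower, 3 of 5 on chromosome 6 and 0 of 7 on chromosome X. These chromosomes are examples and not the full list. Beside these counts, 21.3% of the 108 LINC genes and 6.17% of all genes were lower. The exon classes and chromosomes were not compared by a test.

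Each LINC gene was set beside the protein-coding gene whose start lies nearest. In 74 of the 108 pairs that neighbour had at least 20 counts. Of 18 lower LINC genes in these pairs, 4 had a neighbour that was lower (22.2%, beside 6.17% of all genes), and of 54 LINC genes not called 1 had a lower neighbour. In 0 pairs were the 2 genes called in opposite directions. Neither higher LINC gene with a measured neighbour had one that was called at 2-fold, but both neighbours were higher by less. ANKRD36C, 175 kb from LINC00342, was 1.63-fold higher (1.35 to 1.99). C1orf174, 0.111 kb from LINC01134, was 1.47-fold higher (1.36 to 1.59).

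The 4 pairs in which both genes were lower differ in distance. FOXA2, a transcription factor of endoderm that starts 6.82 kb from LINC00261, had 47 and 10 counts and was 4.52-fold lower (2.25 to 10.0). The LINC00261 side of this pair rests on 22 counts and on a sequence shared almost whole with AL121722.1. HES6, a Notch pathway factor that starts 8.36 kb from LINC02610, went from 142 to 69.2 CPM, 2.05-fold lower (1.94 to 2.18). LINC02610 itself (chromosome 2, 239133754 to 239140318, 247 and 110 counts) was 2.16-fold lower (1.72 to 2.73). VEGFA, the angiogenic growth factor, starts 121 kb from LINC01512 and went from 364 to 152 CPM, 2.39-fold lower (2.30 to 2.48). HIST1H2BL, a histone gene 114 kb from LINC01012, had 51 and 24 counts, 2.04-fold lower (1.23 to 3.47), where LINC01012 had 95 and 41 counts. The first 2 pairs start within 10 kb of each other and the other 2 over 100 kb apart.

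Most neighbours of the lower LINC genes were not called, though several had an interval that left out no change, in either direction. NQO2, 11.9 kb from LINC01011, was 1.94-fold lower (1.82 to 2.07). MAP1LC3B2 beside LINC00173 was 1.74-fold lower (1.57 to 1.93), and RALA beside LINC00265 1.61-fold lower (1.51 to 1.71). ARHGAP28 beside LINC00668 was 1.83-fold higher (1.55 to 2.16), and ANKRD10 beside LINC00346 1.43-fold higher (1.27 to 1.60). IRF2BP2, a transcriptional corepressor gene 115 kb from LINC01132, had 88.0 and 62.0 CPM, DMSO first (1.42-fold lower, 1.33 to 1.51). AURKB, a mitotic kinase gene 13.5 kb from LINC00324, had a log2 ratio of -0.07, and PPP2R5C, beside LINC00239, one of -0.08. ATP13A3, beside LINC00884, had a log2 ratio of 0.26 where LINC00884 was 5.29-fold lower.

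Several neighbours were higher beside a LINC gene that was not. TFRC, the transferrin receptor, 60.5 kb from LINC00885, was 4.94-fold higher (4.84 to 5.04), whereas LINC00885 had 166 and 104 counts, a log2 ratio of -0.62 (-0.99 to -0.26). CD93, 46.3 kb from LINC00656, had 15 and 92 counts, 6.38-fold higher (3.67 to 11.9), and LINC00656 had 193 and 124, a log2 ratio of -0.58 (-0.92 to -0.25). Among the head-to-head pairs, ZC3H12A, an RNase of inflammatory transcripts that starts 0.072 kb from LINC01137, was 2.06-fold higher (1.70 to 2.50). LINC01137, now LITATS1, had 29 and 14 counts, a log2 ratio of -0.97 (-2.03 to -0.03). ZFP36L2, an mRNA decay factor 0.605 kb from LINC01126, was 2.07-fold higher (1.94 to 2.20), and LINC01126 had 40 and 31 counts (-0.31, -1.04 to 0.40). BTG2, an antiproliferative gene 0.211 kb from LINC01136, was 2.52-fold higher (2.33 to 2.73), where LINC01136, now BTG2-DT, had 10 and 14 counts (0.52, -0.73 to 1.87).

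**Figure D5:**
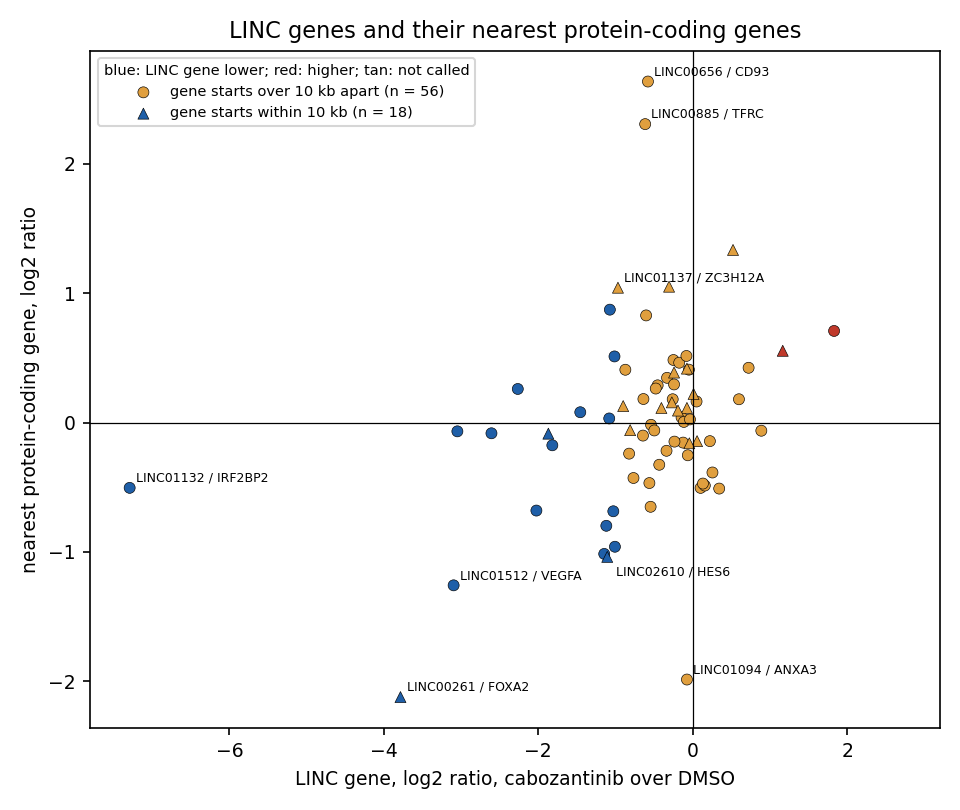
Each point is a LINC gene and its nearest protein-coding gene with at least 20 counts (74 pairs), with the log2 ratio of cabozantinib over DMSO of the LINC gene on the horizontal axis and of its neighbour on the vertical axis. LINC00261 with FOXA2, LINC01512 with VEGFA and LINC02610 with HES6 lie in the lower left, and TFRC and CD93 lie high above LINC genes with ratios near -0.6.

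Across the 74 pairs the log2 ratios of the LINC gene and its neighbour had a Pearson r of 0.30 and a Spearman rho of 0.22. Without LINC01132 and LINC00261 they were 0.21 and 0.17, over 72 pairs. In the 48 pairs whose LINC gene had at least 100 counts they were 0.18 and 0.17. These are values across genes within the same 2 libraries, which are not independent replicates. In the 18 pairs with starts within 10 kb Pearson r was 0.73 and Spearman rho 0.39, and without LINC00261 and FOXA2 the Pearson r was 0.39.

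By the posterior probability in the authors' deposited table, at least 0.95 in favour of a difference, 13 of the 108 LINC genes differed, 11 of them lower and 2 higher. Over all genes with at least 20 counts, the authors' deposited table gave this to 4.08% as lower and 1.75% as higher. All 13 were also called here by 2-fold. The 2 higher ones in the authors' deposited table were LINC00891, with a shrunken fold of 6.80, and LINC00342, with 3.54. LINC01134 was not among them.

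At the edge of the choice, LINC01597, with 12 and 8 counts, and LINC00337, with 11 and 10, were just inside the sum of 20 counts. LINC01138, with 16 and 3 counts, and LINC01140, with 9 and 9, were just outside it.

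The cells carried the erythroid markers of K562, all 7 measured and summing to 12338 CPM in DMSO and 31445 with cabozantinib, of which 4 were higher and 0 lower. Markers of other cells were measured as 3 genes for each type. T-cell markers summed to 9.90 and 2.54 CPM, nearly all from CD3D, which was lower (9.59 and 2.38 CPM). B-cell markers summed to 1.24 and 0.606 CPM with MS4A1 at 0, and myeloid markers to 16.9 and 9.04 CPM, nearly all from LYZ, with MPO at 0. Fibroblast markers summed to 3.10 and 2.62 CPM with LUM at 0, and epithelial markers to 70.5 and 86.2 CPM, nearly all from EPCAM, with KRT5 at 0. The part of these levels in the LINC gene differences was not tested.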

How the data were processed

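RNA from 1 K562 culture in DMSO and 1 in cabozantinib was sequenced from total RNA, with strand-specific TruSeq libraries per the labels' protocols. The authors deposited whole-number counts per Entrez gene. The aligner was Rsubread and the build hg19, per the file headers. The builds hg19 and GRCh37 also stand in the submitters' processing notes. The strand setting, the handling of multiply aligned reads and any poly(A) selection were not given in the sources used here. Gene positions come from the annotation columns of the count files (hg19, first base 1). The authors' deposited table holds a shrunken fold ratio and a posterior probability (from 0 to 1) per gene, and its direction was read from the labelled counts. Another 4 columns there give library values without naming a sample and were not used. Symbols were taken from that table, in which 907 of 17392 genes have none.

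Libraries were scaled with TMM factors (1.03 for DMSO and 0.971 for cabozantinib) of edgeR 4.0.16 in R 4.3.3. Log2 ratios used a pseudocount of 0.5, and folds used the scaled counts without it. Ratio intervals are exact (Clopper-Pearson) at 95% and cover counting error only, as do binomial intervals and the limit of 3 counts for a count of 0. With 1 library per group there was no test and there are no p-values. The calculation was tested on simulated Poisson counts. Gene types and newer names came from RefSeq by Entrez ID (108 of 108 matched, GRCh38 table, names and types only). Shared sequence was the percentage of 31-base words of a gene's longest GENCODE 29 transcript found in other genes, for 100 of the 108. Positions in the genome were not compared, so a copy elsewhere and another gene annotated at the same place count alike. Promoters are RefSeq's.

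The named genes were the 10 called lower and up to 10 called higher with the interval bound farthest from no change, the 8 highest by CPM and the 5 highest by CPM per kb. To these were added the studied LINC genes, the 2 genes on each side of the count threshold, and the neighbours of named genes. Other genes named are examples chosen after their values were seen. The genes and lists were chosen with earlier results of these data known. Alternatives covered library scaling (by total counts, by the upper quartile, or with size factors from DESeq2 1.42.0), count filters, the pseudocount, the fold threshold, the deposited folds, gene overlap and newer symbols. An alternative without genes of shared sequence was added after seeing the data. Scripts ran in Python 3.11.15 with scipy 1.17.1 and pandas 2.3.3.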

Additional observations from a re-analysis of the deposited data

How the results depend on the processing

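Scaling by total counts, DESeq2 size factors or the upper quartile left the same 23 LINC genes lower, with 1 more under total counts (24). LINC01134 was lost under total counts and the upper quartile. Over all 13391 genes, 826 were lower with TMM, 948 with total counts, 840 with DESeq2 size factors and 852 with the upper quartile. The genes called higher were 391, 326, 386 and 375 in that order. Total counts moved the median log2 ratio of all genes by -0.08 and that of the LINC genes to -0.36. With no filter on counts 5 LINC genes were higher and 28 lower of 224, and no share over all genes was taken there. With at least 100 counts 11 of 69 were lower (15.9%, beside 4.37% of all genes). At 1.5-fold 6 were higher and 36 lower, beside 8.01% and 12.3% of all genes. By the posterior probability of at least 0.95 in the authors' deposited table, 11 were lower, beside 4.08% of all genes. Without the 17 genes that share over 40% of their 31-base words, 19 of 91 were lower, 2 were higher and the median was -0.37. The 91 include the LINC genes with no matched transcript, whose shared sequence was not measured. Over all genes, with none left out for shared sequence, 6.17% were lower and 2.92% higher. Without mitochondrial and globin genes in the total, the LINC share was 0.106% for DMSO and 0.0934% for cabozantinib. Within 10 kb, 2 pairs were both lower and Pearson r was 0.73, or 0.39 without LINC00261 and FOXA2. Of 130 values of the 26 named LINC genes over 5 alternatives, 129 stayed inside the counting interval, 1 (LINC01000 under total counts) did not, and 0 called values changed sign. Each scaling shifts all genes alike, by -0.08 in log2 for total counts and by less for the others. Most of the intervals are wider than that, so this tally had little room to differ. The motif count over the group could not be made, for want of promoters. No paired analysis was possible because each group holds 1 library. Genes under 100 counts, 39 of the 108, have intervals too wide to give the size of a difference.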

Other observations

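Another 12 genes with at least 20 counts carry a LINC name in the RefSeq table but an older symbol in the deposited one, so the rule did not take them. Of these 3 were lower and 0 higher by the 2-fold rule, 8 had a log2 ratio below 0, and the median was -0.41. Of all genes with at least 20 counts, 6.17% were lower, 2.92% were higher and 49.6% had a ratio below 0, with a median of 0.00. With only 12 genes, these values were not compared by a test. LINC02806, deposited as LOC284561 (hg19 chromosome 1, 147751386 to 147763967), had 151 counts in DMSO and 13 with cabozantinib, 5.86 and 0.525 CPM, and was 11.2-fold lower (6.34 to 21.5). LINC02693, deposited as C17orf51, had 192 and 79 counts and was 2.34-fold lower (1.79 to 3.08). LINC02749, deposited as LOC100506082, had 30 and 11 counts and was 2.62-fold lower (1.28 to 5.80). LINC02864, deposited as LOC400655, was the most abundant of the 12 by counts, with 1073 and 741 (log2 ratio -0.48, -0.61 to -0.34).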
